A study of Homo sapiens with 5 samples.

Results

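The 37 genes described here mark the germ layers and the earliest lineages that leave the pluripotent state, and they were taken from a table of 33857 genes by gene symbol. The rule holds 38 names, since the brachyury gene counts once under either T or TBXT, and every gene was found in the table. They fall into 6 groups: 8 genes of neural ectoderm, 3 of neural crest, 5 of primitive streak and mesendoderm, 5 of mesoderm, 9 of endoderm, and 7 of trophoblast and other extraembryonic tissue. Poly(A+) RNA was sequenced from H9 cells, an established human embryonic stem cell (hESC) line. The cells were kept in mTeSR medium, without a differentiation step. The paper states that transfected cultures went through puromycin selection before clones of single cells were picked.

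The study compared H9 cells in a pair of groups, which the labels call control KO and CFIm25 KO. The mock control group (n = 2) came from clones that had received the empty CRISPR/Cas9 vector. The CFIm25-m group (n = 3) had been edited with CRISPR/Cas9 guides against NUDT21, the gene for CFIm25, a subunit of the mRNA 3' processing factor CFIm. The paper describes these as clones made with independent guides that keep a reduced amount of an altered CFIm25 protein, so a clone differs from another in guide as well as in clonal origin, and the lines are a knockdown and mutation rather than a complete loss. The labels do not say which clone or culture each sample came from, and p-values measure only the spread between these samples.

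Pluripotent cells of the epiblast give rise to ectoderm, mesoderm and endoderm at gastrulation. Cells that pass through the primitive streak first express T-box factors such as brachyury and eomesodermin and then become mesoderm or definitive endoderm, whereas cells that stay outside the streak become neural and surface ectoderm under SOX, OTX and PAX factors. Trophoblast separates earlier, under GATA, TFAP2 and CDX2 factors. Several of these genes, among them OTX2, FOXD3, SOX3 and NES, are also known to be active in primed pluripotent cells before any lineage is chosen, so a transcript of a marker is not by itself a differentiated cell. In bulk RNA, a change in the number of cells that express a gene cannot be told apart from a change in the RNA of each cell.

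The libraries held between 18754108 and 23372391 reads assigned to genes. Values are normalized counts, gene reads scaled by the size factor of their library. NUDT21, the edited gene, had normalized counts of 6503 and 6398 in mock control, against 4035, 3281 and 3400 in CFIm25-m clones 1, 2 and 3. Every clone was lower, and the log2 fold change was -0.86 (SE 0.11, adjusted p = 0.00431, limma). The 13 pluripotent stem cell markers looked at were all expressed, between the 78.1 and 99.8 percentiles of protein-coding genes per length in mock control. Of these markers, 0 passed the test, although 5 had an unadjusted p below 0.05. Of all 19232 genes tested, 2911 had an unadjusted p below 0.05. The median log2 fold change of the 13 markers was -0.21, beside -0.01 over all genes tested. The markers' summed normalized count was 257707 and 261522 in mock control and lay between 234818 and 238998 in the clones. The sum over all genes tested was also lower in every clone. It was 2.158e+07 and 2.165e+07 in mock control, against 2.076e+07, 2.101e+07 and 2.006e+07 in clones 1, 2 and 3.

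A gene was called off where its mean normalized count was below 10 in both groups, and 19 of the 37 genes were off. Of the 17558 protein-coding genes listed, 15.7% were off. The genes that were not off numbered 5 of 8 for neural ectoderm, 3 of 3 for neural crest, 2 of 5 for primitive streak and mesendoderm, 2 of 5 for mesoderm, 3 of 9 for endoderm and 3 of 7 for trophoblast and extraembryonic tissue. These 18 genes were also the ones that entered the test, for which 10 normalized counts or more were needed in 2 or more samples. The test was limma on log2(normalized count + 1), so that fold changes of low genes are understated, with p-values adjusted over the 19232 genes tested.

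At an adjusted p below 0.05, 1 of the 18 tested genes rose in CFIm25-m and 0 fell. The shares over all tested genes were 0.941% for a rise and 0.936% for a fall. The gene that rose was SOX3. The median log2 fold change of the 18 genes was 0.09, with 11 above 0 and 7 below it, and 5 had an unadjusted p below 0.05. Of all 19232 genes tested, 9279 were above 0 and 9953 below it, and 2911 had an unadjusted p below 0.05. In 7 of the 18 genes all clones were to one side of both mock controls, 3 of them higher and 4 lower. Of all genes tested, 36.8% were separated in this way, so the separation of the marker genes was near that of other genes.

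**Figure D1:**
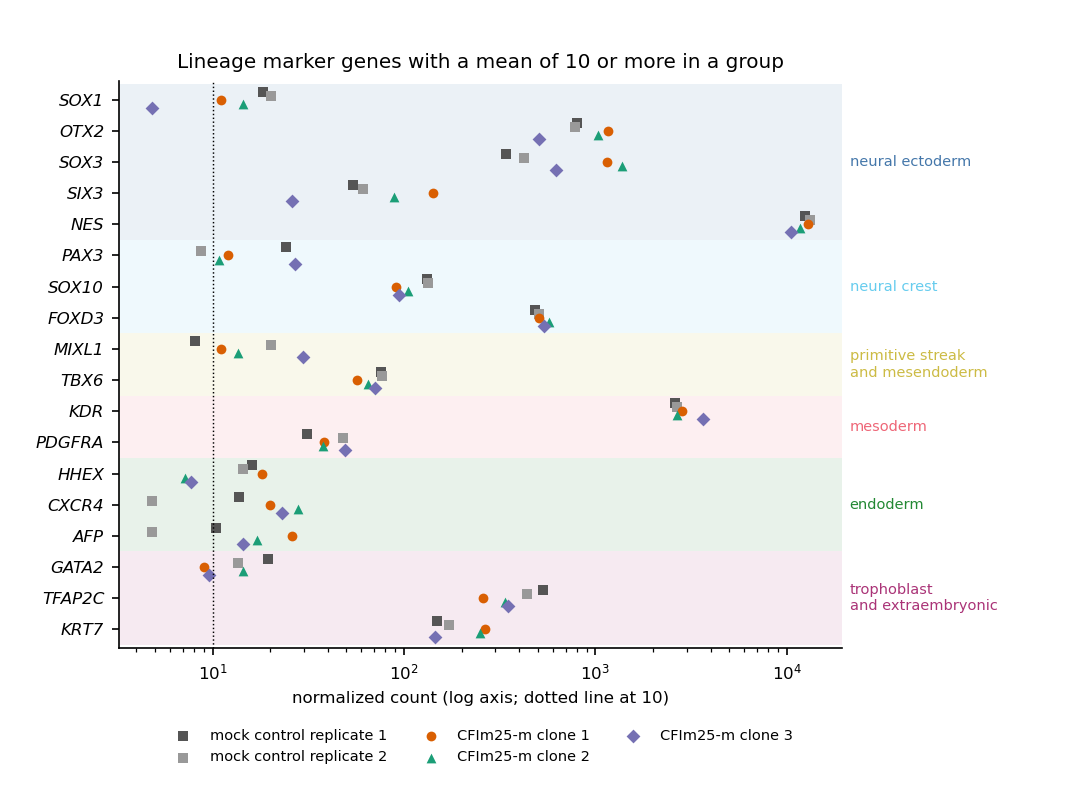
Normalized counts of the 18 lineage marker genes that were not off, on a log axis, with 1 point per sample (squares for mock control, circle, triangle and diamond for CFIm25-m clones 1, 2 and 3) and a dotted line at 10. SOX3 lies higher in all 3 clones than in both mock controls, and the diamond of clone 3 lies to the left of the other clones for all 5 neural ectoderm genes shown.

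The promoters of 27 of the 37 genes were found in RefSeq (GRCh38.p14), at the start site nearest to the 5' end of the gene in the deposited table. Promoters are shown here for the 3 genes with the largest positive fold changes, SOX3, CXCR4 and AFP, and for OTX2, a neural ectoderm gene whose clones lay on both sides of the mock controls. Each sequence is the 250 bases before the start site, 5' to 3' on the strand of the gene. They are chrX:140505070-140505319 on the minus strand for SOX3, chr2:136118150-136118399 on the minus strand for CXCR4, chr4:73435971-73436220 on the plus strand for AFP, and chr14:56810480-56810729 on the minus strand for OTX2. Capitals mark a TATA box, searched as the letters TATAAA or TATATA, which may overlap each other, on the strand of the gene only, with a first base 15 to 45 bases before the start.
SOX3: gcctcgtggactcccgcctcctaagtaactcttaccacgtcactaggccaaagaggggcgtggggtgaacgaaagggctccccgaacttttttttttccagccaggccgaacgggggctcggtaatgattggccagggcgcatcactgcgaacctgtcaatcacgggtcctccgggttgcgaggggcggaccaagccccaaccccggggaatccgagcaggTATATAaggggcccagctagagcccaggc
CXCR4: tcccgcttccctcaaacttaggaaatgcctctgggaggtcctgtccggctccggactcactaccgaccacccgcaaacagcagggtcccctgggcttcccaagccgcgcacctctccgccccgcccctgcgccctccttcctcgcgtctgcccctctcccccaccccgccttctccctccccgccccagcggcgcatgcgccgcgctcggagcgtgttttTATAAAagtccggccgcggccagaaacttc
AFP: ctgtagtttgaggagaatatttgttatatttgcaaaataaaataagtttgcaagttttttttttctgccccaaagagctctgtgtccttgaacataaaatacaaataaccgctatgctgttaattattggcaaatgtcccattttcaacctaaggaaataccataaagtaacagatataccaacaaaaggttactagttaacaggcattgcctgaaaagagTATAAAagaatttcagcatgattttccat
OTX2: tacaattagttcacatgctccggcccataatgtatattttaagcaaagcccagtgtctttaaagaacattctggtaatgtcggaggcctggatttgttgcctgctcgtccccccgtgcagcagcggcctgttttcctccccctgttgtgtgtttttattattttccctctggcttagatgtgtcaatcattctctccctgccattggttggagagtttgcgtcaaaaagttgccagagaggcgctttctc
The letters were found 29 bases before the start in SOX3 and AFP and 30 bases before it in CXCR4, and were not found in that window of OTX2. Of the 27 promoters, 5 held them, the others being TFAP2A and CGA, which is 18.5%. Of 13423 listed protein-coding genes, taking the first start of each, 3.45% held them. CpG dinucleotides numbered between 1 and 38 in these 250 bases, with a median of 17 for the 27 genes and of 19 for the 13423. AFP had the lowest number, and HHEX the highest. The AFP start lies 5083 bases inside the gene as the deposited table gives it, so this region falls within that gene model. The second spelling was added after the SOX3 sequence was seen, so the match in SOX3 was known beforehand and counts toward the 18.5%. The start sites of the 27 genes and of the 13423 were also chosen by different rules. The shares are therefore not like for like and were not tested, and a match of these letters is a description of the sequence only.

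Neural ectoderm held the gene with the clearest difference. SOX3 (ENSG00000134595, chromosome X, 140502985 to 140505116 on the minus strand) encodes a SOXB1 transcription factor of neural progenitors, close to SOX1 and SOX2. Normalized counts of the gene were 343 and 424 in mock control, against 1151, 1385 and 624 in clones 1, 2 and 3. All clones were above both mock controls, and clone 3 was the lowest of them. The means were 384 ± 56.7 (SD, n = 2) and 1053 ± 389 (SD, n = 3), a log2 fold change of 1.39 with a 95% interval from 0.78 to 2.00 (SE 0.27, adjusted p = 0.0354, limma). The call was lost when any library other than clone 3 was left out, with adjusted p between 0.103 and 0.241 in limma, while the fold change stayed between 1.15 and 1.54. Without clone 3 the log2 fold change was 1.72 (adjusted p = 6.01e-05, limma). The 10 tested genes nearest to SOX3 had a median log2 fold change of -0.31, and the 702 tested genes of chromosome X had a median of 0.01. For SOX2, the SOXB1 gene of pluripotent cells, the log2 fold change was -0.21 (adjusted p = 0.442, limma).

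OTX2 (ENSG00000165588, chromosome 14, 56799905 to 56810479 on the minus strand) encodes a homeodomain factor of the primed epiblast and of the forebrain and midbrain. It had normalized counts of 807 and 785 in mock control, against 1166, 1033 and 511 in clones 1, 2 and 3. Clones 1 and 2 were above both mock controls and clone 3 was below both. Over all samples the log2 fold change was 0.10 with a 95% interval from -0.53 to 0.72 (adjusted p = 0.903, limma). Without clone 3 it was 0.46 (adjusted p = 0.0135, limma).

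SIX3 (ENSG00000138083, chromosome 2, 44941898 to 44946077 on the plus strand), a homeobox gene of the anterior forebrain and eye field, also had clone 3 below both mock controls. Normalized counts of the gene were 54.2 and 60.8 in mock control, against 141, 88.2 and 25.97 in clones 1, 2 and 3. Clone 1 stood above the mock controls by more than clone 2 did, and clone 3 stood below them. The log2 fold change was 0.26, with a 95% interval from -0.98 to 1.498 that spans changes in both directions (adjusted p = 0.857, limma).

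SOX1 (ENSG00000182968, chromosome 13), a SOXB1 factor that first appears as cells commit to neural ectoderm, was low. It had normalized counts of 18.4 and 20.3 in mock control, against 11.02, 14.4 and 4.81 in the clones. Every clone was below both mock controls, with clone 3 the lowest, from 5 to 21 reads in all per library. The log2 fold change was -0.99 with a 95% interval from -2.08 to 0.10 (adjusted p = 0.376, limma).

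NES, which encodes the intermediate filament nestin of neural progenitors and of cultured pluripotent cells, was by far the most abundant of the genes. Normalized counts of the gene were 12428 and 13158 in mock control, against 12957, 11702 and 10474 in the clones. The groups overlapped, and the 95% interval of the log2 fold change, from -0.38 to 0.12, was the second narrowest among the genes tested here (adjusted p = 0.611, limma).

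The other neural ectoderm genes were off. LHX2, a LIM homeobox gene of the eye field and cortex, had 0 and 1 read in mock control and 8, 8 and 2 reads in clones 1, 2 and 3. PAX6, which marks neuroectoderm and the eye, had 3 and 4 reads in mock control, against 6, 10 and 6 in the clones. All clones were above both mock controls for these genes, but with the filter on low counts removed the adjusted p was 0.265 for LHX2 and 0.649 for PAX6 (limma). SIX6, an eye-field relative of SIX3, had between 0 and 3 reads in every library. PAX6 overlaps ELP4 and SIX6 overlaps C14orf39, each on the opposite strand, and a strand setting of the counting is not given in the sources used here, so their few reads cannot be assigned to either gene.

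All 3 neural crest genes were on, at levels that differed widely. FOXD3, a forkhead repressor of the crest that is also needed in pluripotent cells, had normalized counts of 486 and 506 in mock control, against 505, 571 and 542 in the clones. The groups overlapped, with a log2 fold change of 0.12 and a 95% interval from -0.13 to 0.37 (adjusted p = 0.650, limma). FOXD3 shares sequence with FOXD3-AS1 on the opposite strand, which had higher values, between 1637 and 1903 in every library.

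SOX10 (ENSG00000100146, chromosome 22, 37970686 to 37987422 on the minus strand), the SOXE factor of migrating crest and its glial derivatives, had normalized counts of 131 and 134 in mock control, against 91.2, 104 and 94.3 in the clones. Every clone was below both mock controls, and neither group spread widely. The log2 fold change was -0.46 with a 95% interval from -0.86 to -0.05, and it did not pass the test after adjustment (adjusted p = 0.272, limma). SOX10 lies in the span of POLR2F on the opposite strand, a gene with values between 1248 and 1561, and reads of either gene in the shared span cannot be told apart without strand. PAX3, a paired-box gene of dorsal neural tube and crest, had 24.2 and 8.69 in mock control, against 12.03, 10.8 and 26.9 in the clones. The mock controls alone covered most of its range (log2 fold change 0.06, adjusted p = 0.973, limma).

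Among the primitive streak and mesendoderm genes, those that define the streak were off. TBXT, the brachyury gene, had 7 and 5 reads in mock control, against 5, 4 and 3 in the clones. EOMES, which encodes the T-box factor of mesendoderm, had 2 or 3 reads in every library, and GSC, the organizer homeobox gene goosecoid, had between 1 and 7. TBX6, a T-box gene of presomitic mesoderm, was on, with normalized counts of 76.1 and 77.2 in mock control, against 57.1, 64.8 and 70.2 in the clones. All clones were below the mock controls, by a log2 fold change of -0.26 with a 95% interval from -0.75 to 0.23 (adjusted p = 0.606, limma). MIXL1, a homeobox gene induced by Nodal and BMP signals in the streak, had 8.07 and 20.3 in mock control, against 11.02, 13.5 and 29.8 in the clones. Clone 3 was the highest sample and mock control replicate 1 the lowest, and the groups overlapped (log2 fold change 0.34, adjusted p = 0.803, limma).

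Of the mesoderm genes, KDR and PDGFRA, which encode receptors, were on and all 3 transcription factor genes were off. KDR (ENSG00000128052, chromosome 4, 55078259 to 55125595 on the minus strand) encodes the receptor for VEGF on vascular progenitors and is known to be expressed in primed hESCs. It had normalized counts of 2608 and 2684 in mock control, against 2831, 2662 and 3635 in the clones. Clone 3 was the highest and clone 2 lay between the mock controls, with a log2 fold change of 0.19 and a 95% interval from -0.10 to 0.48 (adjusted p = 0.525, limma). PDGFRA, the PDGF receptor of paraxial and lateral mesoderm, had 31.1 and 48.3 in mock control, against 38.1, 37.8 and 49.1 in the clones. The groups overlapped nearly in full, with a log2 fold change of 0.09 and a 95% interval from -0.57 to 0.75 (adjusted p = 0.915, limma). MEOX1 of the somites had 0 or 1 read in every library, NKX2-5 of the heart field had 1 to 4, and FOXF1 of lateral and extraembryonic mesoderm had 2 to 6.

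Endoderm had the largest share of genes off, 6 of 9. The factors that establish definitive endoderm were at the edge of detection: SOX17 and FOXA2 had 0 or 1 read in every library, and GATA6 had 1 to 4. HNF4A, a nuclear receptor of the later liver and gut, had 0 to 2 reads, and FOXA1, a pioneer factor of endoderm, had 1 to 5. GATA4, a zinc finger factor of endoderm and heart, had 8 and 9 reads in mock control, against 17, 2 and 6 in clones 1, 2 and 3. Clone 1 alone was above 10, and clone 2 was the lowest.

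CXCR4 and AFP, the endoderm genes with the highest fold changes, were both low in every library. CXCR4 (ENSG00000121966, chromosome 2, 136114349 to 136118165 on the minus strand), the chemokine receptor used to sort definitive endoderm, had normalized counts of 13.8 and 4.83 in mock control, against 20.05, 27.9 and 23.1 in the clones. All clones were above both mock controls, and the mock controls differed from each other by 1.35 on the log2 scale. The log2 fold change was 1.40 with a 95% interval from 0.37 to 2.42 (SE 0.46, adjusted p = 0.187, limma). It was 2.07 without mock control replicate 1 and 0.72 without mock control replicate 2. AFP (ENSG00000081051, chromosome 4, 73431138 to 73456174 on the plus strand), the alpha-fetoprotein gene of yolk sac and fetal liver, had 10.4 and 4.83 in mock control, against 26.1, 17.1 and 14.4 in the clones. Again every clone was above both mock controls, with a log2 fold change of 1.27 and a 95% interval from 0.24 to 2.30 (SE 0.46, adjusted p = 0.232, limma), and it was 0.79 without mock control replicate 2. Neither passed the test, and these values rest on 5 to 31 reads per library. HHEX, a homeobox gene of anterior endoderm and liver bud, had 16.1 and 14.5 in mock control, against 18.04, 7.202 and 7.695 in the clones. Clone 1 was above the mock controls and clones 2 and 3 were below them (log2 fold change -0.56, adjusted p = 0.615, limma).

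In the trophoblast and extraembryonic group, TFAP2C (ENSG00000087510, chromosome 20, 56629302 to 56639283 on the plus strand) encodes an AP-2 factor of trophoblast, germ cells and naive pluripotent cells. Normalized counts of the gene were 535 and 442 in mock control, against 258, 337 and 350 in the clones. Every clone was below both mock controls, with means of 488 ± 65.6 (SD, n = 2) and 315 ± 50.01 (SD, n = 3). The log2 fold change was -0.64 with a 95% interval from -1.0004 to -0.28 (SE 0.16, adjusted p = 0.0901, limma), short of the threshold. The call depended on the tool: the DESeq2 Wald test gave an adjusted p of 0.0339 and edgeR's quasi-likelihood test one of 0.110, at log2 fold changes of -0.62 and -0.61. Without clone 3 limma gave an adjusted p of 0.0208.

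KRT7, the keratin of trophoblast, amnion and other simple epithelia, had normalized counts of 149 and 172 in mock control, against 266, 251 and 146 in the clones. Clones 1 and 2 were above both mock controls and clone 3 was below both. The log2 fold change was 0.42 with a 95% interval from -0.13 to 0.97 (adjusted p = 0.459, limma), and without clone 3 it was 0.69 (adjusted p = 0.0196, limma). KRT7 overlaps KRT7-AS, KRT87P and KRT86, which had values of at most 18.3 in any library. GATA2, a GATA factor of trophoblast and blood, had 19.6 and 13.5 in mock control, against 9.02, 14.4 and 9.62 in the clones, and the groups overlapped (log2 fold change -0.55, adjusted p = 0.565, limma).

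The other trophoblast genes were off. CDX2, the homeobox factor of early trophectoderm, had 0 reads in both mock controls, which allows up to 3 reads per library, and 1, 0 and 1 in the clones. CGA, the alpha chain of the placental hormone chorionic gonadotropin, had 0 to 2 reads. GATA3, a trophoblast and surface ectoderm factor, had 6 and 5 reads in mock control, against 8, 3 and 2 in the clones. TFAP2A, the AP-2 factor of surface ectoderm, crest and trophoblast, had 4 and 8 reads in mock control and 1 read in each clone. All clones were below both mock controls, and with the filter on low counts removed the log2 fold change was -1.84 (adjusted p = 0.245, limma). Floors and read counts at this level cover counting error only.

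Over the 19 genes that were off, the reads summed to 43 and 52 in mock control and to 69, 55 and 45 in the clones, and the highest value of any of them was the 17 reads of GATA4 in clone 1. With the filter removed, 0 of the 19 were called by limma, where the lowest adjusted p was 0.245, and 0 by edgeR, where it was 0.290. DESeq2 gave none of them an adjusted p.

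Compared per length, as normalized count per kb of gene, the levels in mock control fell into widely spaced tiers. NES stood at 2302 ± 92.8 per kb (SD, n = 2) and KDR at 403 ± 8.13. OTX2 at 243 ± 4.804, FOXD3 at 238 ± 6.54, SOX3 at 180 ± 26.6 and TFAP2C at 163 ± 21.8 came next, and within this tier OTX2 and FOXD3 did not differ beyond their spread, nor did SOX3 and TFAP2C. KRT7 at 39.1 ± 3.99, SOX10 at 35.8 ± 0.52, TBX6 at 24.4 ± 0.26 and SIX3 at 22.8 ± 1.86 followed, and all other members were at most 6.98 per kb. In CFIm25-m, SOX3 had a mean of 494 ± 183 per kb (SD, n = 3), a wide spread that took in the mean of KDR, 464 ± 79.2. TFAP2C stood at 105 ± 16.6. Among listed protein-coding genes, the group mean of SOX3 went from the 71.7 to the 90.5 percentile of level per kb and that of TFAP2C from the 69.4 to the 60.0.

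**Figure D2:**
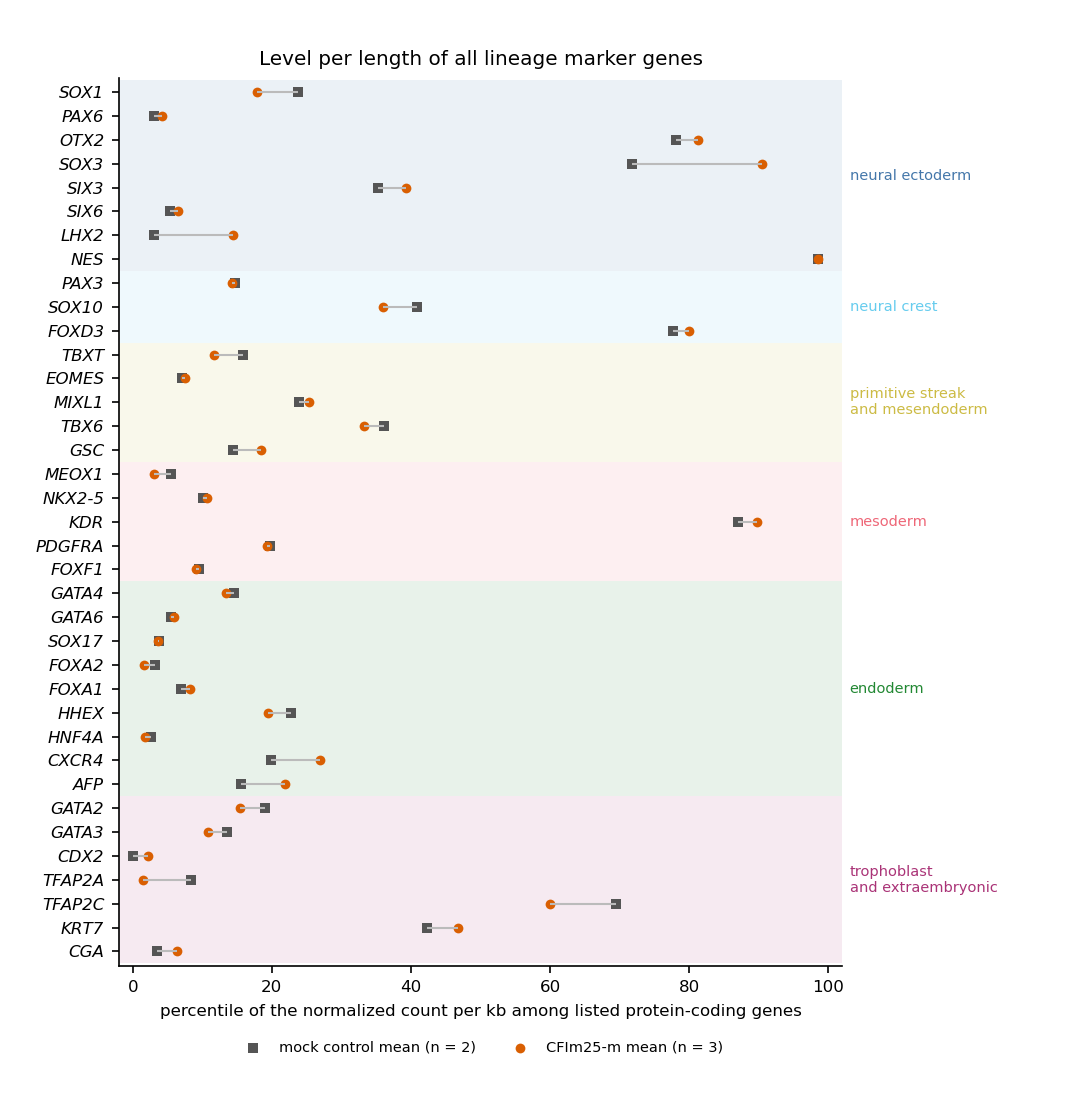
Percentile of each gene's mean normalized count per kb among the listed protein-coding genes, for all 37 lineage marker genes, with squares for mock control and circles for CFIm25-m. NES, KDR, OTX2, FOXD3, SOX3 and TFAP2C lie above the other genes in both groups, and the grey line of SOX3 runs from 71.7 to 90.5.

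For 4 of the 5 tested neural ectoderm genes, SOX3 being the exception, the clones spanned more on the log2 scale than the groups differed. For the 18 tested genes the highest and the lowest clone were a median of 0.72 apart on the log2 scale, beside 0.36 for all genes tested. The mock controls, with fewer samples, were a median of 0.19 apart for the 18 genes and 0.10 for all. For 7 of the 18 genes the clones spanned more than 1 on the log2 scale, as they did for 2141 of the 19232 genes tested. The 18 genes include several with few reads, and the part of counting error in these spans was not tested.

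The position of clone 3 among the clones was seen in the data first and is given as a description with no test. Clone 3 was the lowest clone for 5 of 5 tested neural ectoderm genes and for 7 of the 18 tested genes in all. It was the lowest for 41.3% of all genes tested. Clone 3 lay more than 1 below the mean of clones 1 and 2 on the log2 scale for 4 genes, and such a gap occurred in 1.45% of all genes tested. The 4 genes were all neural ectoderm genes: SIX3 with a difference of -2.06, SOX1 with -1.23, OTX2 with -1.10 and SOX3 with -1.01. NES differed by -0.23, and LHX2, which was off, by -1.56, while SIX6, also off, had its highest value in clone 3. In the other direction, PAX3 differed by 1.17 and MIXL1 by 1.22. Clone 3 was not the lowest clone for any of the tested genes of neural crest, of primitive streak and mesendoderm, or of mesoderm.

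How many genes passed the test depended on the libraries used. With clone 3 left out, 4 of the 18 genes were called: SOX3, OTX2 and KRT7 rose and TFAP2C fell, in a fit in which 2.79% of all tested genes rose and 2.77% fell. With any other library left out, 0 of the 18 genes were called by limma.

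**Figure D3:**
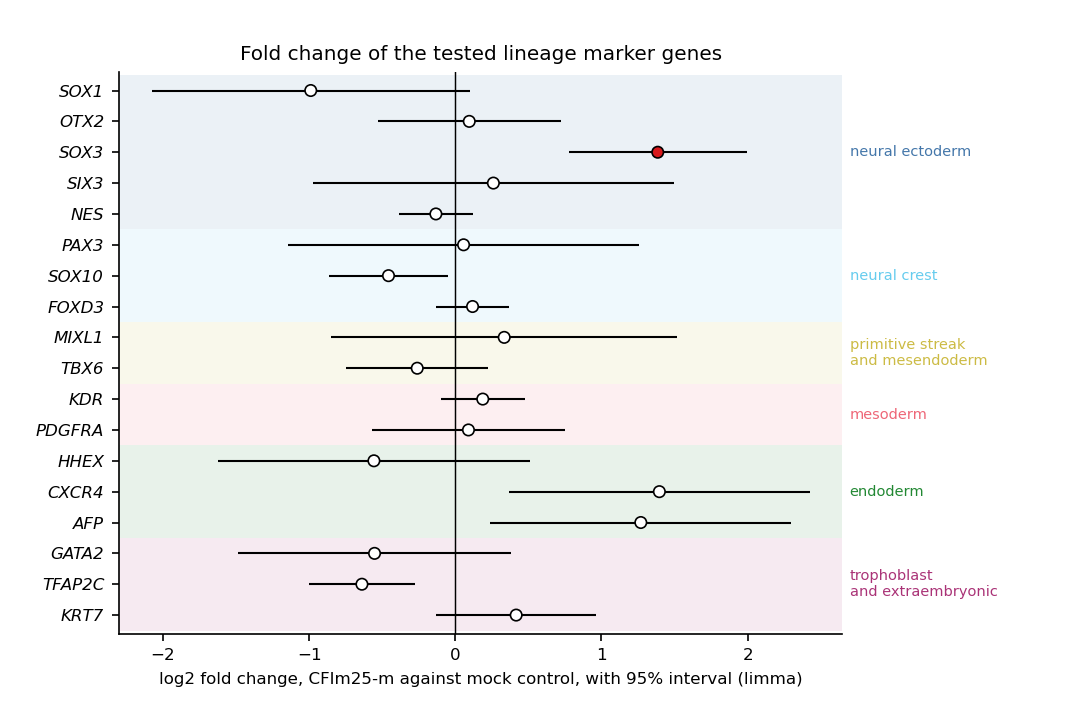
Log2 fold change of CFIm25-m against mock control for the 18 tested lineage marker genes, with the 95% interval from limma as a line; the filled point marks an adjusted p below 0.05 over all tested genes. SOX3 is the filled point, at 1.39, and CXCR4, AFP, TFAP2C and SOX10 have intervals that do not cross 0 without passing the adjusted threshold.

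Further lineage genes outside the 37 were also examined. Of 53 such genes sought, 42 had 1 match each in the table, and the others were not analysed here. Of the 42, 22 were tested and 0 passed, although 2 had an unadjusted p below 0.05. Of all 19232 genes tested, 2911 had such a p. The 2 genes were lower in every clone: MSX2 of the neural crest list and HESX1 of the neural ectoderm list. Log2 fold changes were -2.21 and -0.86 (adjusted p = 0.0628 and 0.180, limma). MSX2 had at most 19 reads in any library. The median log2 fold change of the 22 was -0.04, with 10 above 0 and 12 below it. By list, the tested genes numbered 6 for neural ectoderm, 5 for neural crest, 3 for mesoderm, 6 for endoderm, and 2 for trophoblast and amnion, with median log2 fold changes of 0.08, -0.46, 0.01, -0.21 and 0.07. Clone 3 was the lowest clone for 10 of the 22, beside 41.3% of all genes tested. In the same order of lists, these were 4 of 6, 4 of 5, 1 of 3, 1 of 6 and 0 of 2. Clone 3 lay more than 1 below the mean of clones 1 and 2 (log2) for 2 genes, beside 1.45% of all genes tested. They were LHX5 of neural ectoderm (-1.99) and SNAI2 of neural crest (-1.25, at most 21 reads per library). Other cell types were also checked. Of 7 neuron markers, 0 were off, and 1 fell, DCX, the doublecortin gene of migrating neurons, at a fold change of -1.14 on the log2 scale (adjusted p = 0.00640, limma), and 3 had an unadjusted p below 0.05. ELAVL4 and STMN2, also neuronal genes, lay the other way, with every clone above both mock controls and log2 fold changes of 1.70 and 1.61, and did not pass (adjusted p = 0.0680 and 0.162, limma). The neuron markers' summed normalized count was 1211 and 1097 in mock control and between 905 and 961 in the clones, of which SYT1 made up between 619 and 655. Of 8 fibroblast markers sought, 7 had 1 match each in the table, and 3 of these were off (COL3A1, DCN and LUM). Of the 4 tested, 0 passed, although 3 had an unadjusted p below 0.05, as did 2911 of all 19232 genes tested. The 3 were mixed in direction: COL1A1 was lower (log2 fold change -0.42), and COL1A2 and PDGFRB were higher (0.34 and 0.48). The sum over the 7 markers was 16127 and 16507 in mock control and between 13348 and 16597 in the clones. The part of neuron-like or fibroblast-like cells in the values of the lineage genes was not tested.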

How the data were processed

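Poly(A+) mRNA-seq of 2 mock control and 3 CFIm25-m samples was analysed, with groups and replicate numbers taken from the labels. The authors deposited 1 table of a normalized signal, in which each gene's read count was divided by the size factor of its sample. The submitters' processing notes name HISAT2, featureCounts of Subread, DESeq2 and hg38, and a strand setting is not given in the sources used here. The deposited gene length, in bases, was used for levels per kb. The table also holds the authors' group means, log2 fold changes, p-values and adjusted p-values, which were not used. Sample columns with no matching label numbered 0.

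All values came out as whole reads within a tolerance of 0.01 reads, and the recovered totals ran from 18754108 to 23372391. For 0 reads the floor is 3.

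Genes with at least 10 normalized counts in at least 2 samples were tested with limma 3.58.1 (R 4.3.3, trend) on log2(value + 1), with Benjamini-Hochberg adjustment over all tested genes and a threshold of 0.05. Alternatives were other scalings, filters and pseudocounts, no mean-variance trend, edgeR 4.0.16 and DESeq2 1.42.0 on recovered reads, a replicate block, and leaving out each of the 5 samples. The script was tested on simulated data. Named genes were all members, NUDT21, and companion genes past the threshold. Other genes were named after their values were seen. The members, lists and tests were chosen with earlier results of these data known.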

Additional observations from a re-analysis of the deposited data

How the results depend on the processing

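SOX3 was the member called under the other scalings, filters and pseudocounts and under edgeR's quasi-likelihood test, and all 18 tested members kept the direction of their fold change under these (10 with the filter of 50). Without the mean-variance trend, limma called 0 members, with 25 genes lower and 21 higher over all genes. DESeq2, with and without the filter, and edgeR without it added a fall of TFAP2C, so 1 member was lower: DESeq2 called 349 genes higher and 280 lower, and with no filter, a setting chosen after seeing the data, edgeR called 369 and 280 and DESeq2 called 315 higher. With the replicate number as a replicate block, 1043 genes were higher and 1064 lower, and 4 members were higher and 1 lower. The correlations of deviations between samples with the same number were 0.0072 and 0.018. The mock controls' deviations from their own mean are opposite by construction. These correlations therefore cannot show whether samples with the same number share a culture or batch, which was not tested. With the block, the log2 fold changes were -0.072 for MIXL1, -0.030 for PDGFRA and -0.33 for PAX3, the values found without CFIm25-m replicate 3, which has no mock control of its number and so adds nothing to the blocked fold change.

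With each sample left out, calls over all genes ran from 25 to 536 higher and from 34 to 533 lower, and calls among members from 0 to 3 higher and from 0 to 1 lower. The highest counts came without CFIm25-m replicate 3, and 0 members were called without any one of the others. Over these settings the log2 fold changes that changed sign ran from -0.25 to 0.95 for SIX3, -0.28 to 0.95 for MIXL1, -0.13 to 0.46 for OTX2, -0.22 to 0.40 for PDGFRA and -0.63 to 0.75 for PAX3. The causes were not tested. The number of members off was 13 with a threshold of 5 and 25 with one of 20, and the size of shift that these few reads could show was not tested.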
